A study of Mus musculus with 6 samples.

Results

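Wnt7 and Norrin signalling of neural vessels is represented here by 9 genes, taken by gene symbol from the 26147 genes in the deposited table. They comprise 3 ligands (Wnt7a, Wnt7b and Ndp) and 6 receptor components (Adgra2, Reck, Fzd4, Lrp5, Lrp6 and Tspan12). All 9 passed the filter on low values, a normalized read count of at least 10 in at least 3 libraries. The study sequenced polyadenylated RNA from embryonic day 13.5 retinas of C57BL/6J-background mice, with 3 libraries from wild types and 3 from conditional knockouts of the T-box transcription factor Tbx3 (Tbx3 cKO). The wild types were siblings without Dkk3-Cre that carried 1 floxed and 1 normal Tbx3 allele (Tbx3Fl/+), and the knockouts were Dkk3-Cre+;Tbx3∆Fl/∆Fl. The Dkk3-Cre transgene drives recombination in retinal progenitor cells, so that effects of the transgene and of the deletion cannot be told apart. The number of embryos per library and the litters they came from are not stated in the labels, and p-values therefore reflect the variation among these 6 libraries only, which may be partly technical. Normalized read counts of Tbx3 (ENSMUSG00000018604) ranged from 1998 to 2577 among wild types and from 40.3 to 58.9 among knockouts, so every library matched its label.

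Wnt7a and Wnt7b are secreted by neural cells and act on endothelial cells through a Frizzled receptor and its co-receptor Lrp5 or Lrp6. The adhesion receptor Gpr124 (gene Adgra2) and the membrane-anchored glycoprotein Reck make that complex selective for these Wnt proteins. Norrin (gene Ndp) is no Wnt protein, but it binds the receptor Frizzled4 (gene Fzd4) with Lrp5, and the tetraspanin Tspan12 strengthens its signal. Both routes stabilise beta-catenin in the endothelial cell, and both are known for vessel growth and barrier formation in the brain and retina. In the mouse, vessels grow into the retina itself after birth, and the embryonic eye is served by the hyaloid vessels of the vitreous.

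The Wnt7 ligands are close relatives, so their coding sequences are shown to make clear how well reads can separate them. Over 1046 aligned coding bases 77% were identical, the longest run shared without a difference was 23 bases, and 4 runs reached 20 bases. The stretch around the longest shared run is printed below for both genes from the GENCODE M21 transcripts (GRCm38), with bases common to both in capitals. It spans coding bases 576 to 665 of Wnt7a, on the minus strand of chromosome 6, and 597 to 686 of Wnt7b, on the minus strand of chromosome 15, counted from the A of the start codon.
Wnt7a: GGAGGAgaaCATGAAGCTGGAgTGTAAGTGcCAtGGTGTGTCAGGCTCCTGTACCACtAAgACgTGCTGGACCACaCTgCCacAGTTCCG
Wnt7b: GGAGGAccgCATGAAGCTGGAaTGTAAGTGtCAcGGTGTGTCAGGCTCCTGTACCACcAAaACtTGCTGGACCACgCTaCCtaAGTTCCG
In this stretch 13 of 90 bases differed. How the authors' counting treated reads that fit both genes is not given in the sources used here, and such reads were not examined.

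The receptor components were present in every library, while Wnt7a and Ndp had at most an estimated 31 and 95 reads in a library. Per kilobase of annotated exon (GENCODE M21), wild-type levels ran from Lrp6 (338 ± 5.94) and Lrp5 (309 ± 22.9) through Reck (133 ± 10.9), Tspan12 (99.5 ± 2.27) and Fzd4 (86.4 ± 33.0) to Wnt7b (65.6 ± 26.3) and Adgra2 (44.5 ± 25.0), in normalized reads per kb (mean ± SD, n = 3). Ndp (20.6 ± 22) and Wnt7a (4.11 ± 4.41) were the lowest on this scale. The wild-type ranges of neighbours in this order did not overlap down to Tspan12, and from Tspan12 on every neighbouring pair overlapped. In Tbx3 cKO, Wnt7b headed the order with 409 ± 119 reads per kb, above Lrp6 (311 ± 38.4) and Lrp5 (278 ± 115), with overlapping ranges. Fzd4 (191 ± 136), Tspan12 (151 ± 7.78), Reck (140 ± 28.7) and Adgra2 (135 ± 85.0) followed, again with overlapping ranges of neighbours. A gap between ranges separated Adgra2 from Ndp (15.7 ± 17.7) and Wnt7a (5.66 ± 4.58) in Tbx3 cKO.

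**Figure D1:**
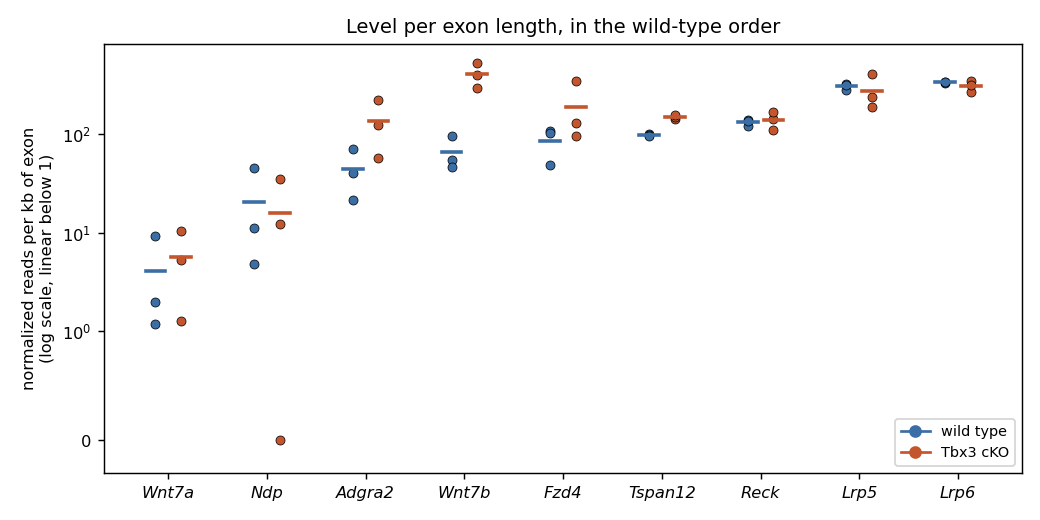
Normalized reads per kb of annotated exon (vertical axis, log scale above 1) for the 9 genes in order of their wild-type mean. Points are libraries and bars are means of 3 libraries per group, and Wnt7b moves from a wild-type mean of 65.6 to 409 in Tbx3 cKO.

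Among the ligands, Wnt7b had the largest difference, which was also the largest of the 9 genes. Wnt7b (ENSMUSG00000022382) had normalized read counts of 267, 469 and 229 in the wild types, against 1946, 1454 and 2617 in the knockouts. All 3 Tbx3 cKO libraries lay above all 3 wild types, and the lowest knockout value was well over the highest wild-type value. The level was 6.35-fold higher in Tbx3 cKO (95% interval 3.79 to 10.7), a log2 fold change of 2.67 (SE 0.32) on the log2(value + 1) scale. Over all 18914 genes tested its limma-trend adjusted p with Benjamini-Hochberg adjustment was 0.0658, just short of the threshold of 0.05, and the adjusted p ran from 0.0419 to 0.319 over 14 alternative settings. The exact two-sided permutation test gave p = 0.1, the smallest that 3 against 3 allows. Without wild type 1 and Tbx3 cKO 3, which were the extremes of several marker lists below, its log2 fold change was 2.36 (limma adjusted p = 0.0893). In such bulk libraries, more cells of a type and more RNA per cell cannot be told apart.

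Wnt7a (ENSMUSG00000030093), the relative of Wnt7b, was 3.73, 29.1 and 6.28 in the wild types, against 4.03, 33.0 and 16.8 in the knockouts. These values stand for an estimated 4 to 31 reads per library, and the groups overlapped throughout. Its log2 fold change was 0.52 with a 95% interval of -1.79 to 2.83 (limma adjusted p = 0.819), an interval that includes changes of several fold in either direction. The ratio of Wnt7b to Wnt7a within a library was 71.5, 16.1 and 36.4 in the wild types, against 483, 44.1 and 155 in the knockouts. The ratios overlapped between groups (difference 2.10 on the log2 scale, exact permutation p = 0.2). Dropping Tbx3 cKO 1 gave 1.25, dropping wild type 2 gave 1.55 and dropping Tbx3 cKO 2 gave 2.98.

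Ndp (ENSMUSG00000040138), which encodes Norrin, was 88.7, 9.40 and 21.5 in the wild types, against 67.5, 23.9 and 0 in the knockouts. The 0 in Tbx3 cKO 3 allows up to 3.16 normalized reads, counting error only. The spread within each group was as wide as its mean, with 39.9 ± 42.7 in the wild types and 30.5 ± 34.2 in the knockouts (SD, n = 3 each). The log2 fold change was -1.21 (95% interval -4.98 to 2.57, limma adjusted p = 0.736), and it turned to 0.58 without Tbx3 cKO 3.

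**Figure D2:**
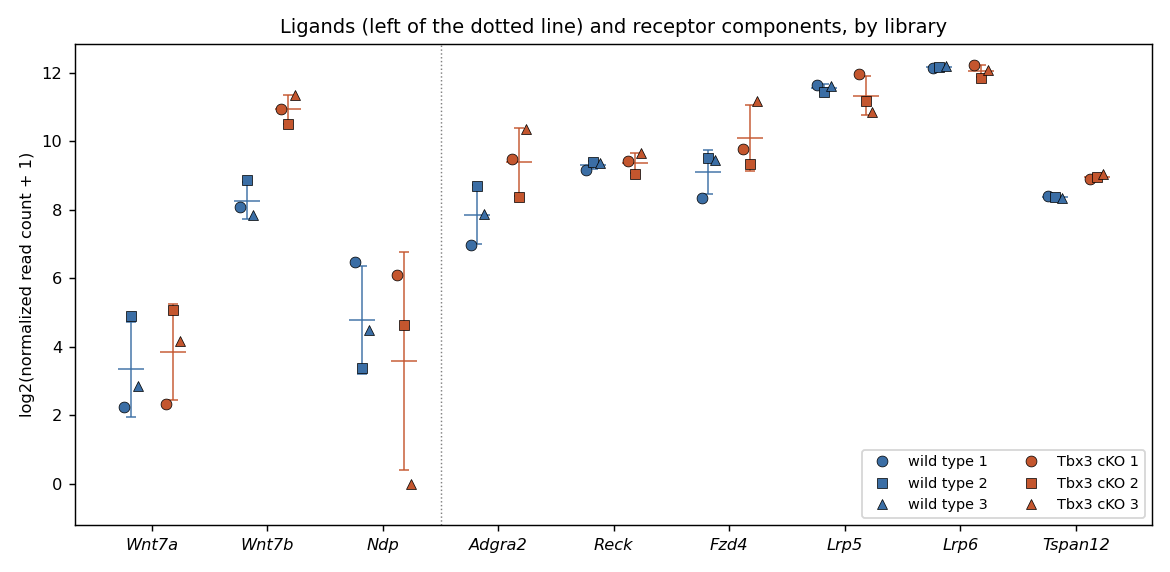
Level of each gene in each library as log2(normalized read count + 1), with the group mean and SD on that scale as bars (n = 3), ligands left of the dotted line. Wnt7b and Tspan12 show no overlap between wild type (blue) and Tbx3 cKO (orange), whereas Ndp spans normalized read counts from 0 to 88.7.

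No receptor component passed the adjusted threshold, and Adgra2, Fzd4 and Tspan12 had the largest log2 fold changes of the 6. By limma-trend 0 of the 9 genes had an adjusted p under 0.05, where 0.0634% of all tested genes did, and limma-voom also called 0. At an unadjusted p under 0.05 stood 3 of the 9, all higher in Tbx3 cKO (Wnt7b, Tspan12 and Adgra2), where 13.5% of all tested genes passed in either direction, 6.39% as higher and 7.16% as lower. Without overlap between groups were 2 of the 9, Wnt7b and Tspan12, against 22.4% of all tested genes (10.6% as higher and 11.7% as lower), so that this share is near the background. The median log2 fold change was 0.52 for the 3 ligands and 0.33 for the 6 receptor components, against -0.02 for all genes tested. Without wild type 1 and Tbx3 cKO 3 the median was 1.43 for the ligands and 0.07 for the receptor components. Each ligand median is the value of a single gene with few reads. The 0.52 is that of Wnt7a, and the 1.43 is that of Ndp, which was -1.21 with all 6 libraries. The ligand median therefore does not show a shift of the ligands as a group.

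Tspan12 (ENSMUSG00000029669), the tetraspanin partner of Frizzled4, had the smallest p of the receptor components. It was 337, 329 and 322 in the wild types, against 477, 494 and 527 in the knockouts. The 3 values within each group were tight and the groups lay apart. The level was 1.51-fold higher (95% interval 1.22 to 1.87, log2 fold change 0.60, SE 0.13), with an unadjusted p of 0.00252, a limma adjusted p of 0.265 and an exact permutation p of 0.1. Every one of 14 alternative settings gave a log2 fold change between 0.56 and 0.64, and the adjusted p ran from 0.198 to 0.568.

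Fzd4 (ENSMUSG00000049791), the Norrin receptor, was 325, 721 and 697 in the wild types, against 872, 646 and 2329 in the knockouts. Wild type 1 was low, Tbx3 cKO 3 was high, and the other 4 libraries lay together. Its log2 fold change of 1.0 (95% interval -0.22 to 2.22, limma adjusted p = 0.414) was 0.08 without those 2 libraries. Adgra2 (ENSMUSG00000031486), which encodes Gpr124, had the same lowest and highest library, with 124, 411 and 236 in the wild types, against 712, 329 and 1303 in the knockouts. The Adgra2 groups overlapped through Tbx3 cKO 2 and wild type 2. Its log2 fold change was 1.55 (95% interval 0.17 to 2.93, unadjusted p = 0.0329, limma adjusted p = 0.350), and 0.63 without wild type 1 and Tbx3 cKO 3.

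Reck, the partner of Gpr124, and the co-receptors Lrp5 and Lrp6 had the smallest differences of the receptor components. Reck (ENSMUSG00000028476) was 575, 672 and 657 in the wild types, against 681, 525 and 798 in the knockouts. Its fold was 1.04 with a 95% interval of 0.776 to 1.39 (limma adjusted p = 0.898), and the Tbx3 cKO values surrounded the wild-type ones. Lrp6 (ENSMUSG00000030201) was 4546, 4624 and 4709 in the wild types, against 4743, 3698 and 4307 in the knockouts. The Lrp6 fold was 0.914 (95% interval 0.761 to 1.1, limma adjusted p = 0.596). Lrp5 (ENSMUSG00000024913), shared by both routes, was 3161, 2751 and 3105 in the wild types, against 3962, 2319 and 1831 in the knockouts. The wild-type Lrp5 values fell inside the wider range of the knockouts, and the fold was 0.854 (95% interval 0.554 to 1.32, limma adjusted p = 0.699).

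**Figure D3:**
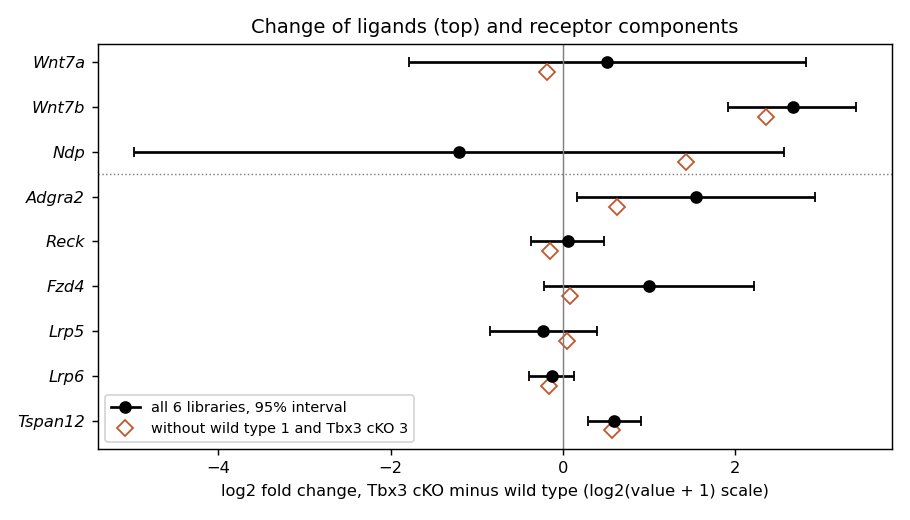
Log2 fold change of each gene, Tbx3 cKO minus wild type, with its 95% interval from limma-trend over all 6 libraries (black) and the value without wild type 1 and Tbx3 cKO 3 (orange diamonds). Wnt7b stays at 2.36 and Tspan12 at 0.57 without these libraries, while Fzd4 moves from 1.0 to 0.08.

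The retinas held transcripts of other cell types in amounts that differed between libraries. The libraries comprised an estimated 21482152 to 27173132 reads each. Summed markers of retinal progenitors (8 genes) were 65068 to 70011 in wild type and 44945 to 69956 in Tbx3 cKO, and all 8 were present in every library. Ganglion cell markers (8 genes) were 12875 to 74479 in wild type and 523 to 8099 in Tbx3 cKO, and lens markers (7 genes) spanned 409 to 102699 and 466 to 72106. The sums in wild type and in Tbx3 cKO were 769 to 1428 and 2876 to 5950 for macrophages (10 genes), 823 to 5604 and 5568 to 27094 for pigment epithelium (7 genes), 2771 to 11731 and 12988 to 40572 for the ciliary margin (6 genes), and 464 to 602 and 1231 to 3319 for optic stalk and astrocytes (4 genes). Mural and periocular mesenchyme markers (9 genes) were 540 to 5107 and 1920 to 11707, and red blood cell markers (7 genes) 14774 to 50183 and 51673 to 374519. Of all these markers, Pou4f2 of ganglion cells in Tbx3 cKO 3 was the one value listed at 0.

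Wnt7b and several of these sums were higher in Tbx3 cKO, but their order among the wild types differed. Wnt7b was lowest in wild type 3 (229). The macrophage, pigment epithelium, ciliary margin and optic stalk sums were lowest in wild type 1. All of them were highest in Tbx3 cKO 3. Macrophages, which are a known source of Wnt7b in the hyaloid vessels of the eye, had higher markers in Tbx3 cKO without overlap for all 10 genes, with 10 of 10 at an unadjusted p under 0.05 and 0 past the adjusted threshold by limma-trend and by limma-voom. Wnt7b divided by the macrophage sum was 0.160 to 0.356 in wild type and 0.440 to 0.677 in Tbx3 cKO, so Wnt7b was also higher relative to these markers, without overlap. Divided by the pigment epithelium sum it was 0.0591 to 0.325 and 0.0966 to 0.285, by the ciliary margin sum 0.0238 to 0.0964 and 0.0645 to 0.137, and by the optic stalk sum 0.380 to 0.893 and 0.788 to 1.18. Relative to these 3 lists the groups overlapped, through wild type 1 alone for pigment epithelium (0.325) and the ciliary margin (0.0964). For the optic stalk they overlapped through wild type 2 alone (0.893). The other wild types lay below every knockout. These ratios were computed after the values were seen and are given without a test, and the part of these cell types in the Wnt7b difference was not tested.

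Receptor levels were also set against markers of endothelial cells, where these receptors act in Wnt7 and Norrin signalling. Which cells made the receptor transcripts cannot be read from such bulk libraries. The sum of 12 endothelial markers was 4535 to 4624 in wild type and 3851 to 6421 in Tbx3 cKO, but from 18% to 91.5% of it was Kdr, a VEGF receptor gene that retinal progenitors also transcribe. Without Kdr the other 11 markers summed to 392, 2108 and 1523 in the wild types, against 3443, 1551 and 4096 in the knockouts. Wild type 1 was again lowest and Tbx3 cKO 3 highest, as for Fzd4 and Adgra2. The sums of macrophage, pigment epithelium, ciliary margin, optic stalk, mural and red blood cell markers had the same lowest and highest library. Relative to the 11 endothelial markers, Adgra2 was 0.317, 0.195 and 0.155 in the wild types, against 0.207, 0.212 and 0.318 in the knockouts. The difference was 0.18 on the log2 scale (exact permutation p = 0.5). Fzd4 was 0.829, 0.342 and 0.458 in the wild types, against 0.253, 0.417 and 0.569 in the knockouts on this scale, a log2 difference of -0.37 (exact permutation p = 0.5). With Kdr in the sum these log2 differences were 1.43 for Adgra2 (exact permutation p = 0.2) and 0.88 for Fzd4 (exact permutation p = 0.4). The direction for Fzd4 thus depended on whether Kdr was counted as endothelial. Fzd4 divided by the macrophage sum was 0.423 to 0.547 in wild type and 0.198 to 0.392 in Tbx3 cKO. Divided by the pigment epithelium sum it was 0.129 to 0.395 and 0.086 to 0.128, again without overlap. The groups overlapped for Fzd4 relative to the ciliary margin and optic stalk sums, and for Adgra2 relative to each of these sums. These ratios were computed after the values were seen, without a test. The part of these cell types was not tested.

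Reck, Lrp5, Lrp6 and Tspan12 were set against the same endothelial sums. Relative to the 11 markers, the log2 difference was -1.32 for Reck, -1.60 for Lrp5 and -1.50 for Lrp6 (exact permutation p = 0.2 each), and -0.77 for Tspan12 (exact permutation p = 0.5). In wild type 1, where these markers were lowest, Lrp6 was 11.6 times and Lrp5 8.06 times their sum. The same ratios were 1.05 and 0.447 in Tbx3 cKO 3. Reck, Lrp5, Lrp6 and Tspan12 themselves had log2 fold changes of 0.06, -0.23, -0.13 and 0.60. The negative differences relative to the 11 markers thus came mainly from the marker sum, and they do not give receptor levels per endothelial cell. With Kdr in the sum the differences were -0.06 for Reck, -0.35 for Lrp5, -0.25 for Lrp6 and 0.48 for Tspan12. The exact permutation p with Kdr was 0.1 for Lrp6 and Tspan12, 0.2 for Lrp5 and 0.8 for Reck.

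**Figure D4:**
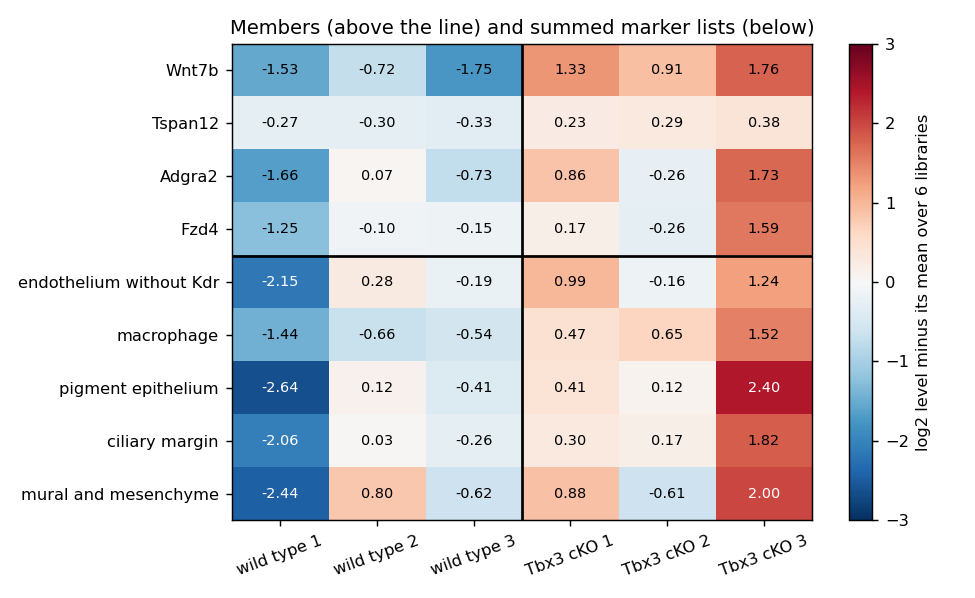
Log2 level minus its mean over the 6 libraries for 4 of the genes (above the horizontal line) and for summed marker lists (below it), with red above and blue below the mean. Wnt7b, Tspan12 and the macrophage sum change sign between the groups in every library. Adgra2, Fzd4, the endothelial sum and the mural and mesenchyme sum are below their mean in Tbx3 cKO 2.

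Among genes that release, relay or answer the Wnt signal, 0 genes of each of the following lists passed the adjusted threshold by limma-trend or limma-voom. Of 4 genes for Wnt release, 0 stood at an unadjusted p under 0.05 and the median log2 fold change was 0.05. Wls, the carrier that brings Wnt proteins to the cell surface, was 71.0, 671 and 321 in the wild types, against 480, 598 and 2504 in the knockouts. That spread put its log2 fold change of 1.84 at a limma adjusted p of 0.403, with the lowest and highest value in the same libraries as for Fzd4. Tmed2, which helps in early secretory transport, was 3544 ± 105 against 3186 ± 357 (SD, n = 3 each).

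Among 16 genes of the cytoplasmic and nuclear relay, the median log2 fold change was -0.06, with 1 higher and 3 lower at an unadjusted p under 0.05. Gsk3b, a kinase that marks beta-catenin for breakdown, was 7568 ± 1383 in the wild types and 5724 ± 451 in the knockouts (log2 fold change -0.39, limma adjusted p = 0.343). Apc, a scaffold of the same complex, was 7406 ± 1647 and 5372 ± 659 (log2 fold change -0.45, limma adjusted p = 0.357). Named after their values were seen, the third lower gene was Pygo1 (1916 ± 122 against 1628 ± 77.1) and the higher one was the transcription factor gene Tcf7 (417 ± 160 against 735 ± 245). The gene of beta-catenin itself, Ctnnb1, also named after its values were seen, was 29816 ± 597 and 29402 ± 1995 (log2 fold change -0.02).

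Of 18 secreted or membrane modulators of Wnt receptors, 14 were tested, with a median log2 fold change of 0.24 and 1 gene at an unadjusted p under 0.05. This was Frzb, a secreted Frizzled-like inhibitor, at 23.3 ± 7.41 in the wild types and 54.5 ± 14.6 in the knockouts (limma adjusted p = 0.335). Wif1, a secreted Wnt inhibitor, was 78.8 ± 16.5 and 37.0 ± 34.3 (limma adjusted p = 0.376). The median of this list turned to -0.33 without wild type 1 and Tbx3 cKO 3.

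Target genes of beta-catenin gave no common direction, with a median log2 fold change of 0.03 over the 8 tested of 9, 4 positive and 4 negative. Nkd1, a feedback inhibitor of Wnt signalling, was 1650, 1775 and 1843 in the wild types, against 1600, 1343 and 1021 in the knockouts. Its groups did not overlap (log2 fold change -0.43, unadjusted p = 0.0380, limma adjusted p = 0.357). Notum, which inactivates Wnt proteins, was 140 ± 39.3 and 72.3 ± 58.2 (limma adjusted p = 0.386). Axin2, a widely used reporter of the pathway named after its values were seen, was 225, 571 and 377 in the wild types, against 511, 480 and 1285 in the knockouts. Axin2 again had wild type 1 lowest and Tbx3 cKO 3 highest, with a log2 fold change of 0.90 (limma adjusted p = 0.416).

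Genes of neural barrier endothelium, many of them downstream of Wnt7 and Norrin, had a median log2 fold change of 0.73 over the 11 tested of 13, with 2 higher and 1 lower at an unadjusted p under 0.05. The list includes Plvap, a gene of fenestrated vessels that this signalling is known to hold down, at 146 ± 123 in the wild types and 209 ± 74.4 in the knockouts (limma adjusted p = 0.582). Without Plvap, left out after the values were seen, the median of the other 10 tested genes was 0.38. With Plvap in the list, the median was 0.23 without wild type 1 and Tbx3 cKO 3, and -0.05 without wild type 1 alone. Slc2a1, the glucose transporter of barrier endothelium that many other cells also make, was 13335, 12266 and 13694 in the wild types, against 28568, 25279 and 14163 in the knockouts (log2 fold change 0.73, limma adjusted p = 0.335). Here Tbx3 cKO 3 was the knockout closest to wild type, unlike for Fzd4 and Adgra2. Sox17, an endothelial transcription factor gene named after its values were seen, was 17.8 ± 9.18 and 52.2 ± 19.4 (limma adjusted p = 0.342). Spock2, a secreted proteoglycan gene, was the lower one, at 2119 ± 957 in the wild types and 985 ± 319 in the knockouts (limma adjusted p = 0.328). By library it was 3223, 1572 and 1561 in the wild types, against 1352, 839 and 766 in the knockouts. Wild type 1 was thus highest and Tbx3 cKO 3 lowest, as for the ganglion cell sum and opposite to the sum of the 11 endothelial markers.

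The tested genes whose profile over the 6 libraries lay nearest to Wnt7b were found among 11655 genes with a mean of at least 100, by the root-mean-square difference of log2(value + 1) after centring each gene. They were Klhdc7a (difference 0.399), Myo1f (0.419) and Ncf1 (0.42), where Wnt7b itself varied with an SD of 1.39 on this scale. Klhdc7a was 21.5, 43.2 and 44.9 in the wild types, against 224, 192 and 327 in the knockouts. Ncf1, a subunit of the phagocyte oxidase, was 44.8, 63.9 and 56.5 in the wild types, against 203, 162 and 348 in the knockouts. Myo1f, a myosin of white blood cells, was 27.1, 68.6 and 51.1 against 185, 189 and 443. Nearest to Tspan12 were Abhd11 (0.084), Cyb5r1 (0.092) and Colgalt2 (0.093), beside an SD of 0.30 for Tspan12 itself.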

How the data were processed

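The authors deposited 1 table of normalized read counts per gene for the 6 libraries, a signal that is not whole and was taken as reads divided by 1 factor per library. The tools named are Partek, STAR 2.7.8a and cutadapt 4.2, with the GRCm39 (mm39) genome, per the submitters' processing notes. For the counter, the annotation and the scaling method, the sources used here give nothing. Polyadenylated RNA was made into strand-specific libraries, per the labels' protocols. Low values were mostly multiples of a step of 0.897 to 1.138 (76.2 to 78.5% of values up to 20 steps lay within 0.02 steps), which gave the estimated reads, but whole reads could not be recovered.

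The test covered 18914 genes that reached 10 in 3 or more libraries and left out 7233. Groups were compared on log2(value + 1) with limma-trend (limma 3.58.1 under R 4.3.3). P-values were two-sided and adjusted after Benjamini-Hochberg over all tested genes, at a threshold of 0.05. The added 1 shrinks fold changes of low genes, but a library at 0 can still weigh heavily on this scale. For Ndp the fold was 0.433, where the ratio of group means was 0.764. Exact permutation tests compared the group means over the 6 libraries. They used normalized read counts for each of the 9 genes. For the Wnt7b to Wnt7a ratio and the ratios of receptors to endothelial sums they used log2 ratios. The steps were also run on simulated counts, drawn for each gene on its own without shifts of cell types shared between genes. That run therefore does not show how the steps behave with such shifts. The genes and lists were chosen with earlier results of these data known. Named were the 9 genes, Tbx3, the 2 genes of smallest p per pathway list where none passed, and the 3 genes nearest in profile to the ligand and the receptor of smallest p. Exon lengths and coding sequences came from GENCODE M21 (GRCm38), matched by gene identifier, and the coding sequences were aligned with Biopython 1.88. No gene coordinates are given because that build differs from the authors'. Alternatives covered the pseudocount, filter, scaling, replicate block, limma-voom, the endothelial sum and leaving out libraries.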

Additional observations from a re-analysis of the deposited data

How the results depend on the processing

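Wnt7b, Adgra2, Fzd4 and Tspan12 kept a positive log2 fold change in all 14 alternatives, and Lrp6 a negative one. Wnt7b passed the adjusted threshold with no filter on low values (log2 fold change 2.67, limma adjusted p = 0.0419), which made 1 ligand called in place of 0. No other gene of the 9 was called in any alternative. Leaving out 1 library at a time gave log2 fold changes of -0.10 to 1.30 for Wnt7a, -2.47 to 0.58 for Ndp, -0.08 to 0.22 for Reck and -0.54 to 0.01 for Lrp5. Without wild type 1 and Tbx3 cKO 3 they were -0.18, 1.43, -0.15 and 0.05, and the log2 difference in the ratio to the 12 endothelial markers was 0.51 for Adgra2 and -0.04 for Fzd4. With Kdr left out of that sum the differences were 0.18 for Adgra2, -1.32 for Reck, -0.37 for Fzd4, -1.60 for Lrp5, -1.50 for Lrp6 and -0.77 for Tspan12. The cause of these moves was not tested.

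Replicate numbers were shared between groups, but same-numbered libraries did not all deviate together (correlations 0.33, 0.018 and 0.0424 for numbers 1, 2 and 3). With the replicate block Wnt7b had a log2 fold change of 2.67 and a limma adjusted p of 0.105, and 13 genes in all were called in place of 12. Over all genes, limma-voom called 7. Calls fell to 1 gene when wild type 1, 2 or 3 or Tbx3 cKO 1 or 2 was dropped. Without Tbx3 cKO 3 there were 10, and without both wild type 1 and Tbx3 cKO 3 there were 43. Wnt7a and Ndp rested on few reads, an estimated 4 to 31 and 0 to 95 per library.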
